A study of Mus musculus with 5 samples.

Results

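The trophoblast marker genes Cdx2, Tead4, Tfap2c, Elf5, Gata2, Gata3, Hand1, Krt8 and Krt18 were followed in 5 mouse embryonic stem cell (ESC) lines. These 9 genes are 9 of the 19505 genes named on the array, and they were read by 11 of its 41174 probes, every probe that carries the gene's name. Tfap2c was found under its older name, Tcfap2c. Gene expression was measured with 1-colour Agilent arrays, 1 array per line and with no repeat of a line. The wild-type group held RF8, labelled male and of 129sv origin, and #620-2, labelled female and C57BL6/129sv. The ECAT11EGFP/EGFP group held #620-6, labelled female, and #757-1 and #757-2, both labelled male, all 3 C57BL6/129sv. In these lines both copies of the ECAT11 coding region were replaced by an EGFP and puromycin resistance cassette. RF8 is the line in which the gene was targeted, and the other 4 lines were derived from blastocysts of matings of mice that carried the cassette. All 5 lines were grown with LIF on gelatin, while the methods give SNL feeder cells for the derivation of the lines. Each line is a single clone, so the p-values below measure the spread between these lines. Strain origin, gender label, clone and array slide cannot be fully told apart from genotype. By name, #620-2 and #620-6 share the number 620, and #757-1 and #757-2 share 757. How lines that share a number are related is not stated.

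The trophectoderm is the outer layer of the blastocyst, from which the trophoblast of the placenta grows, while ESCs come from the inner cell mass. In the outer cells TEAD4, a DNA-binding protein, works with the co-activator YAP, which the Hippo pathway holds out of the nucleus of inner cells, and turns on Cdx2. CDX2, TFAP2C, GATA3 and ELF5 then act in the trophoblast stem cell, HAND1 drives trophoblast giant cells, and keratins 8 and 18 pair into the intermediate filaments of this epithelium. ESCs are known to express some of these genes at a low level and Tfap2c, which also acts in the germ line, at more than that.

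Signals are given as log2 of the background-corrected intensity after division by the 75th percentile of the array, so 0 is that percentile and 1 unit is a 2-fold change. The percentile itself lay between 687.5 and 794.4. RF8, #620-2 and #620-6 shared slide 1, and #757-1 and #757-2 shared slide 2. Slide 1 had 26362 to 27134 probes well above background per array, and slide 2 had 22044 for #757-1 and 21242 for #757-2. The lowest signal well above background was -4.49 for #757-1 and -4.22 for #757-2, and lay between -6.22 and -5.90 on slide 1. All 10 ESC marker genes on a separate list (Pou5f1, Sox2, Nanog and others) were well above background in every line, with a summed signal of 489 to 567 times the 75th percentile, of which Dppa5a gave most. Zfp42, a marker of the undifferentiated state, varied 8.75-fold between lines with its brightest probe. It gave 3.87 in #757-2 and 4.01 in #620-6, against 6.56 in #757-1, 6.80 in #620-2 and its highest level in RF8. With their brightest probes, Nanog (2.54), Esrrb (2.56), Sox2 (4.14) and Dppa5a (8.07) were instead lowest in RF8. Pou5f1, Sall4, Tdgf1, Utf1 and Fbxo15 were lowest in another line. Of the 14 probes of this list, 2 had an unadjusted limma p under 0.05, against 7.6% of all probes compared. They were for Fbxo15 and the dimmer Sall4 probe, both higher in the ECAT11EGFP/EGFP lines. The brighter Sall4 probe differed by 0.26 ± 0.20 (SE). Both Zfp42 probes were lower in the ECAT11EGFP/EGFP lines, by log2 differences of -2.09 and -3.29, without passing that level.

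All 11 probes passed the filter for low signals, which asked for a detected spot on at least 1 array, and 9 of them were well above background on all 5 arrays. The genotypes were compared with limma over 28972 probes, with Benjamini-Hochberg adjustment over all of them. Probes that differed by more than 2-fold with an adjusted p under 0.05 were called. None of the 11 probes was called (0 of 11), where 0.00345% of all probes were, which is 1 probe. At an unadjusted p under 0.05, 2 of the 11 probes passed, both higher in the ECAT11EGFP/EGFP lines, against 7.6% of all probes (1179 higher and 1023 lower). The methods' t-test likewise passed 2 of the 11 at this level. The groups did not overlap for 3 of the 11 probes, against 23.5% of all probes with 5 values. The log2 difference was above 0 for 8 probes and below 0 for 3, with a median of 0.84, while the median of all probes was -0.02. With 2 lines against 3, an exact permutation test cannot give a p under 0.1. In simulated data this comparison recovered 0% of 2-fold and 14.5% of 4-fold changes. The lack of a call thus does not exclude changes of these sizes. The RNA came from whole cultures, so fewer cells of a type and less RNA per cell cannot be told apart in any of these values.

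**Figure D1:**
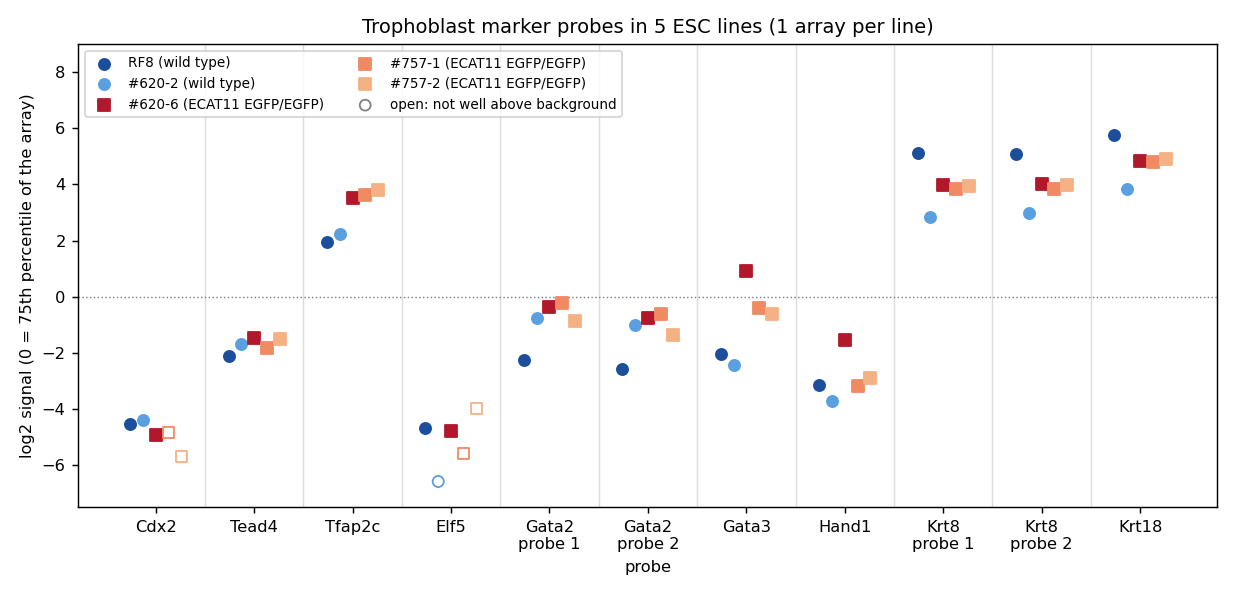
Log2 signal of each of the 11 marker probes (x axis) in each of the 5 lines (y axis, 0 is the 75th percentile of the array). Circles are wild-type lines, squares are ECAT11EGFP/EGFP lines, and open symbols are not well above background. For Tfap2c and Gata3 all squares lie above both circles, and for Krt8 and Krt18 the circles lie on either side of the squares.

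Cdx2 and Tead4 stand at the start of trophectoderm specification. The Cdx2 probe (chr5:146195375-146195434, minus strand, mm7) gave -4.52 in RF8, -4.40 in #620-2, -4.93 in #620-6, -4.85 in #757-1 and -5.68 in #757-2. It was well above background in the 3 lines of slide 1 and in neither line of slide 2. The values of RF8 and #620-6 lay below the lowest signal well above background of both slide 2 arrays, so such a level was not detectable there. The log2 difference of the ECAT11EGFP/EGFP lines, of which only #620-6 measured it, from the wild-type lines was -0.69 ± 0.31 (SE, limma adjusted p = 0.726), and the groups did not overlap. With normexp in place of the scanner's own background correction the difference was -0.06. Tead4, which encodes the DNA-binding partner of YAP (chr6:128250598-128250657, minus strand), gave -2.11 in RF8, -1.68 in #620-2, -1.48 in #620-6, -1.82 in #757-1 and -1.50 in #757-2. The groups overlapped, and the difference was 0.29 ± 0.22 (SE, limma adjusted p = 0.864), with a 95% confidence interval from -0.28 to 0.87.

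Tfap2c, which encodes the transcription factor AP-2 gamma, separated the genotypes with little spread within each. Its probe (chr2:172351014-172351073, plus strand) gave 1.94 in RF8 and 2.24 in #620-2, against 3.52 in #620-6, 3.62 in #757-1 and 3.80 in #757-2. All 3 ECAT11EGFP/EGFP lines lay above both wild-type lines. The gap between the groups was 1.29 at its narrowest, between #620-6 and #620-2. The mean difference was 1.56 ± 0.18 (SE, 95% confidence interval 1.08 to 2.04), or 2.95-fold. Its unadjusted limma p was 0.0005, the 53rd smallest of the 28972 probes, and its adjusted p was 0.285. With the slide as a block, which here leaves the comparison within slide 1 (#620-6 against both wild-type lines), the difference was 1.43 ± 0.24 (SE). The adjusted p of that fit was 0.301, within a range of 0.184 to 0.924 over 15 alternatives.

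Gata3 and Gata2 encode GATA factors that act in the trophoblast. The Gata3 probe (chr2:9796514-9796573, minus strand) gave -2.06 in RF8 and -2.42 in #620-2, against 0.90 in #620-6, -0.42 in #757-1 and -0.63 in #757-2. The 3 ECAT11EGFP/EGFP lines again lay above both wild-type lines, with #620-6 above the other two. The difference was 2.19 ± 0.53 (SE, 95% confidence interval 0.81 to 3.57), or 4.57-fold. The unadjusted limma p was 0.0102, the 615th smallest, and the adjusted p was 0.481. Within slide 1, with the slide as a block, the difference was 3.14 ± 0.27 (SE) with an adjusted p of 0.157, the lowest of a range that reached 0.985. Without #620-2 the difference was 2.01 and the unadjusted p rose to 0.0585.

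The 250 bases before the start of Gata3 are shown because AP-2 gamma is itself one of the markers. They lie on chromosome 2 (chr2:9878601-9878850, minus strand, RefSeq, GRCm38.p6), 5′ to 3′, with capitals for the AP-2 motif GCCNNNGGC, which is its own reverse complement.

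Gata3: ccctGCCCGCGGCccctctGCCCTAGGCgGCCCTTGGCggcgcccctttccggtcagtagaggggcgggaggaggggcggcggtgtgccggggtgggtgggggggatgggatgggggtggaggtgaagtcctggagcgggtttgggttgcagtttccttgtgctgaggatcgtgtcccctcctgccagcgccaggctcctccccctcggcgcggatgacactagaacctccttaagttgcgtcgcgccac

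This window held 3 AP-2 motifs, of which none overlapped another, 0 TEAD motifs (GGAATG or CATTCC) and 0 GATA motifs (AGATAA or TTATCT). Among 32851 RefSeq promoter windows of this length, 13.7% held at least 1 AP-2 motif, 12.6% a TEAD motif and 9.99% a GATA motif. The window held 19 CpG, against a median of 6, and the shares above were not matched for CpG. How many windows held 3 AP-2 motifs was not counted. RefSeq windows were found for 6 of the 9 markers, and those of Tfap2c, Hand1 and Tead4 were not. The Cdx2 window held 1 AP-2 motif, 1 of the 2 Gata2 windows held 1 AP-2 and 1 TEAD motif, and 1 of the 2 Elf5 windows held 1 TEAD motif. A match is a run of letters and was not tested as a binding site.

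Gata2 was read by 2 probes, which differed by at most 0.12 in any line once each was centred. The first (chr6:88281934-88281993, plus strand) gave -2.25 in RF8, -0.75 in #620-2, -0.36 in #620-6, -0.24 in #757-1 and -0.87 in #757-2. RF8 lay lowest and the other 4 lines lay close together, so the groups overlapped. The difference was 1.01 ± 0.51 (SE, limma adjusted p = 0.768) for this probe and 0.88 ± 0.54 (adjusted p = 0.828) for the second (chr6:88281461-88281520, plus strand). Without RF8 the differences were 0.25 and 0.10.

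Elf5 encodes an ETS factor of the trophoblast stem cell, and Hand1 a basic helix-loop-helix factor of giant cells. The Elf5 probe (chr2:103301588-103301647, plus strand) gave -4.68 in RF8 and -4.79 in #620-6, where it was well above background. It was not well above background in #620-2 at -6.58, #757-1 at -5.58 and #757-2 at -3.98. Only 1 line of each genotype thus measured it, and the fitted difference was 0.84 ± 0.76 (SE, limma adjusted p = 0.896), which turned to -0.11 without #620-2. Hand1 (chr11:57910385-57910444, minus strand) gave -3.13 in RF8, -3.72 in #620-2, -1.54 in #620-6, -3.18 in #757-1 and -2.89 in #757-2. Its highest line was #620-6, while #757-1 lay below RF8. The difference was 0.89 ± 0.57 (SE, limma adjusted p = 0.835). With the slide as a block, which compares #620-6 with the wild-type lines, it was 1.89 ± 0.35 (SE), unadjusted p = 0.0074 and limma adjusted p = 0.335, the lowest over 15 alternatives, whose highest was 1.00.

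**Figure D2:**
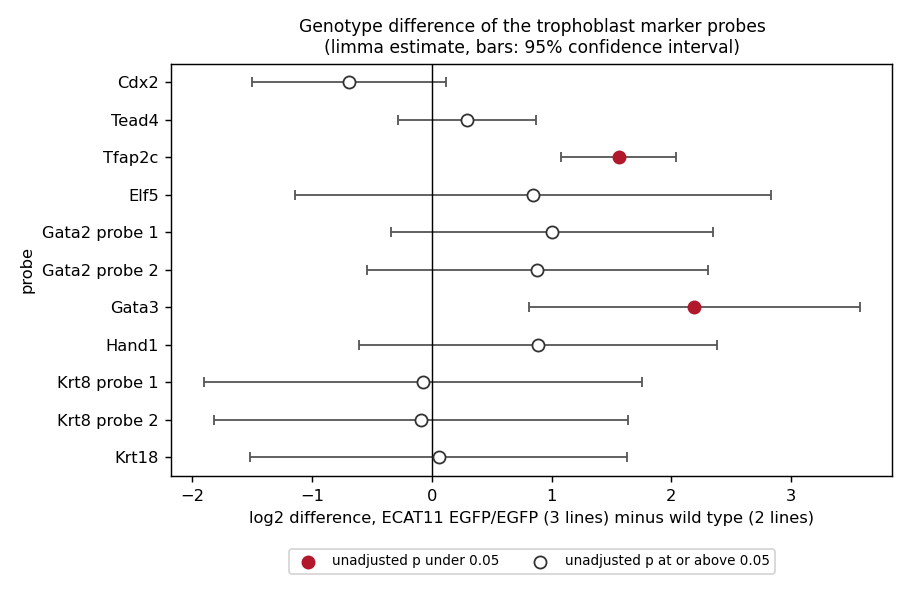
Log2 difference of the ECAT11EGFP/EGFP lines (n = 3) from the wild-type lines (n = 2) for each marker probe, with bars for the 95% confidence interval of limma. The intervals of Tfap2c (1.08 to 2.04) and Gata3 (0.81 to 3.57) lie above 0, and those of the other 9 probes span 0.

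Krt8 and Krt18, which encode the keratin pair of simple epithelia, varied most within the wild-type group, while the means of the genotypes lay close together. The first Krt8 probe (chr15:101983072-101983131, minus strand) gave 5.13 in RF8, 2.85 in #620-2, 3.99 in #620-6, 3.83 in #757-1 and 3.93 in #757-2. The second (chr15:101982940-101982999, minus strand) gave 5.10 in RF8, 2.97 in #620-2 and 3.82 to 4.01 in the ECAT11EGFP/EGFP lines. Krt18 (chr15:102018067-102018126, plus strand) gave 5.76 in RF8, 3.82 in #620-2, 4.83 in #620-6, 4.81 in #757-1 and 4.91 in #757-2. For all 3 probes RF8 was the highest line, #620-2 the lowest, and the ECAT11EGFP/EGFP lines lay together between them. RF8 exceeded #620-2 by 4.83-fold and 4.39-fold for the Krt8 probes and by 3.85-fold for Krt18. The SD of the wild-type pair was 1.61, 1.51 and 1.37 for these probes, against 0.08, 0.10 and 0.05 among the 3 ECAT11EGFP/EGFP lines.

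The genotype difference was -0.07 ± 0.70 and -0.09 ± 0.66 (SE) for Krt8 and 0.06 ± 0.60 for Krt18, with limma adjusted p-values of 0.994, 0.992 and 0.995. Their 95% confidence intervals ran from -1.90 to 1.76, from -1.82 to 1.64 and from -1.52 to 1.63, which leaves room for more than a 2-fold difference in either direction. The sign of each depended on which wild-type line stood for the group. Without RF8 the differences were 1.06, 0.98 and 1.03, and without #620-2 they were -1.21, -1.16 and -0.91. Probes that pair with near-identical keratin pseudogenes were not looked for.

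Krt8 and Krt18 are neighbours on chromosome 15, on opposite strands. After centring, Krt18 differed from the first Krt8 probe, the dimmer one, by at most 0.24 in any line, with a root mean square of 0.13. Because they moved together, the 250 bases before each start are shown (RefSeq, GRCm38.p6, 5′ to 3′), at chr15:102004343-102004592 on the minus strand for Krt8 and chr15:102027966-102028215 on the plus strand for Krt18. Capitals mark the GATA motif in Krt8 and the AP-2 motif in Krt18.

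Krt8: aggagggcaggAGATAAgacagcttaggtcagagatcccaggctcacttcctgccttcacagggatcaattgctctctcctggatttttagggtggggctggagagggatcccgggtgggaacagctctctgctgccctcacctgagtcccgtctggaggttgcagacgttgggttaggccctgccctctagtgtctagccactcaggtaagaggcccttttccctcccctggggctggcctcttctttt

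Krt18: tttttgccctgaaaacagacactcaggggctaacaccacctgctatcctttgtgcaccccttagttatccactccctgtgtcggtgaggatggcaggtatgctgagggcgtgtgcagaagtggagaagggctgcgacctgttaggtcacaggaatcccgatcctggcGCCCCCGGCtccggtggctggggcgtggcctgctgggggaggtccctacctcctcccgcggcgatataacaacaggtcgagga

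The Krt8 window held 1 GATA motif and no AP-2 or TEAD motif, and the Krt18 window held 1 AP-2 motif and neither of the others. They held 3 and 12 CpG. The pair thus shared none of the 3 motifs searched in these windows.

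Of the 10 marker probes well above background in both wild-type lines, 5 differed by more than 2-fold between RF8 and #620-2, namely the 3 keratin probes, which were higher in RF8, and both Gata2 probes, which were lower in it. Over all probes well above background in both lines, 10.3% did. Across the 5 lines, the SD of 8 of the 9 marker probes well above background on all arrays was larger than that of 92.1% to 99.0% of 20617 such probes. Gata3 varied most, with an SD of 1.34, and Tead4 least, with an SD of 0.26, larger than 53.7% of probes.

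No line was measured again, so the order of the lines was read against the scanner's own error of each spot, and neighbours were called separate where their gap exceeded 2 combined errors. For Krt8 and Krt18 this set RF8 above and #620-2 below the other 3 lines, which were not separated. For Gata3 it set #620-6 above #757-1 and #757-2, and these above RF8 and #620-2. For Tfap2c the only such gap was the one between the genotypes. Gata2 had 1, below which RF8 stood alone, and Hand1 had 2, with #620-6 above and #620-2 below the rest. For Cdx2, Elf5 and Tead4 no neighbours were separated. This error leaves out the spread between cultures.

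The genes whose centred profile over the 5 lines came closest to that of Gata3, the marker with the largest SD, were 3830417A13Rik, Calcoco2, Sytl3, Vpreb1 and H19, among 12102 genes. Their root mean square difference from Gata3 was 0.23 to 0.37 on the log2 scale, where a flat profile gives 1.20. H19, an imprinted RNA abundant in the placenta, gave -0.32 in RF8, 0.22 in #620-2, 3.02 in #620-6, 1.44 in #757-1 and 1.94 in #757-2. With 5 lines such a likeness is a description only.

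Another 4 lists of trophoblast genes, with 39 genes of which 37 had a named probe, placed the markers among their pathway. None of their 53 kept probes was called, 10 passed at an unadjusted p under 0.05 in limma (8 higher and 2 lower in the ECAT11EGFP/EGFP lines), and 21 did not overlap. Over all probes 7.6% passed at that level and 23.5% did not overlap. The lists' median log2 difference was 0.24, beside the 0.84 of the markers and the -0.02 of all probes. After Benjamini-Hochberg adjustment the methods' t-test called none of them either.

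Among 11 genes of the Hippo pathway and its TEAD partners, 2 of 23 probes passed at an unadjusted p under 0.05, both higher, a share near the 7.6% of all probes. The groups did not overlap for 10 of the 23, against 23.5% of all probes. Of these, 8 were higher, all of them probes of Tead1, Lats2 and Nf2, and 2 were lower. The list median was 0.22 over probes and -0.15 with only the brightest probe of each gene. Nf2, which encodes the upstream Hippo regulator merlin, was read by 3 probes. One gave -2.18 in RF8 and -2.13 in #620-2, against -0.10 in #620-6, -0.03 in #757-1 and 0.29 in #757-2, a difference of 2.20 ± 0.19 (SE, limma adjusted p = 0.285). The brightest Nf2 probe differed by only 0.39 ± 0.18 (adjusted p = 0.737), so the probes of this gene disagreed in size. The dimmest differed by 1.19 but was well above background only in RF8 and #620-6. Of the 4 probes of Lats2, a kinase that phosphorylates YAP, 1 passed, with a difference of 0.68 ± 0.26 (adjusted p = 0.653), and the other three gave 0.22 to 0.57. Yap1 itself lay between -1.26 and -0.83 in all lines, with a difference of 0.06 ± 0.21 (adjusted p = 0.981).

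Among 8 genes of trophoblast stem cells, 4 of 12 probes passed at an unadjusted p under 0.05, all higher, and the list median was 0.48. Fgfr2, the receptor for the FGF4 on which these cells depend, gave -1.44 in RF8 and -1.90 in #620-2, against -0.37 in #620-6, 0.11 in #757-1 and 0.01 in #757-2 with its brightest probe. That difference was 1.59 ± 0.25 (SE, limma adjusted p = 0.346), and a second probe gave 1.57 ± 0.25. The remaining probe was well above background in #620-6 alone. Rhox5, an X-linked homeobox gene expressed in the placenta, gave 4.23 in RF8 and 5.23 in #620-2, against 7.51 in #620-6, 6.82 in #757-1 and 7.49 in #757-2. The difference was 2.54 ± 0.41 (SE, limma adjusted p = 0.354), or 5.83-fold. The summed signal of this list, to which Rhox5 gave most, was 34.0 to 43.9 times the 75th percentile in the wild-type lines and 129 to 194 in the ECAT11EGFP/EGFP lines. The lines ranked in this sum as they did for Rhox5, and no sum was taken without that gene. Eomes, which defines these cells together with Cdx2 and was named after its values were seen, gave -2.85, -1.98, -1.75, -2.62 and -2.997 in RF8, #620-2, #620-6, #757-1 and #757-2, a difference of -0.04 ± 0.48 (adjusted p = 0.996).

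Among 8 genes of the trophectoderm epithelium, 1 of 10 probes passed at an unadjusted p under 0.05, with a list median of 0.14. This was Cldn4, a tight junction claudin, which was higher by 0.72 ± 0.24 (SE, limma adjusted p = 0.591). Krt19, Krt7 and Dsp were chosen after their values were seen, to set beside the keratin pair. Krt19 gave 3.12 in RF8, 0.12 in #620-2, 1.46 in #620-6, 1.54 in #757-1 and 1.89 in #757-2. Dsp, which encodes the desmosomal protein desmoplakin, gave 1.28, -1.28, -0.66, -0.10 and -0.06 in the same order. In both, RF8 was highest and #620-2 lowest, as for Krt8 and Krt18. Krt7 shared the low value in #620-2 (0.00) but was higher in #620-6 (1.40) than in RF8 (1.24). The other genes of this list did not follow the order of the keratin pair. Atp1b1 (1.06) and Aqp3 (1.27) were lowest in RF8, and Cldn6 (-0.65) was lowest in #620-6. Cdh1 was highest in RF8 (4.94), as the keratin pair was, but lowest in #620-6 (3.42). Cldn4 was highest in #757-1 (-3.31).

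**Figure D3:**
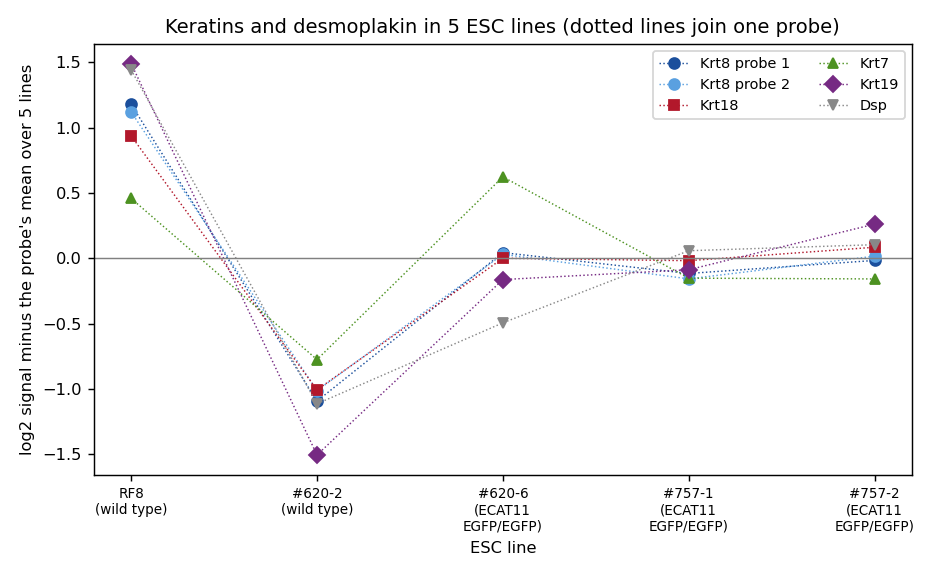
Log2 signal minus the probe's mean over the 5 lines (y axis) for Krt8, Krt18, Krt7, Krt19 and Dsp in each ESC line (x axis). The keratin pair, Krt19 and Dsp peak in RF8 and are lowest in #620-2, while Krt7 is highest in #620-6. Krt7, Krt19 and Dsp were chosen after their values were seen.

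Among 12 genes of the differentiated placental trophoblast, 10 had a named probe, and Tpbpa, Ctsq and Dlx3 were not well above background on any array. Of the 8 kept probes, 3 passed at an unadjusted p under 0.05. The list median was -0.11 over probes and turned to 0.04 with only the brightest probe of each gene. Gcm1, the syncytiotrophoblast factor, was 0.76 ± 0.21 higher (SE, limma adjusted p = 0.529), and the 2 probes of Mmp9, a giant cell protease, gave -0.93 ± 0.22 (adjusted p = 0.472) and -1.15 ± 0.33 (adjusted p = 0.543). All 3 were well above background on slide 1 and on neither array of slide 2, and with normexp they shrank to 0.25, -0.15 and -0.15. The summed signal of this list was at most 0.85 times the 75th percentile in any line.

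**Figure D4:**
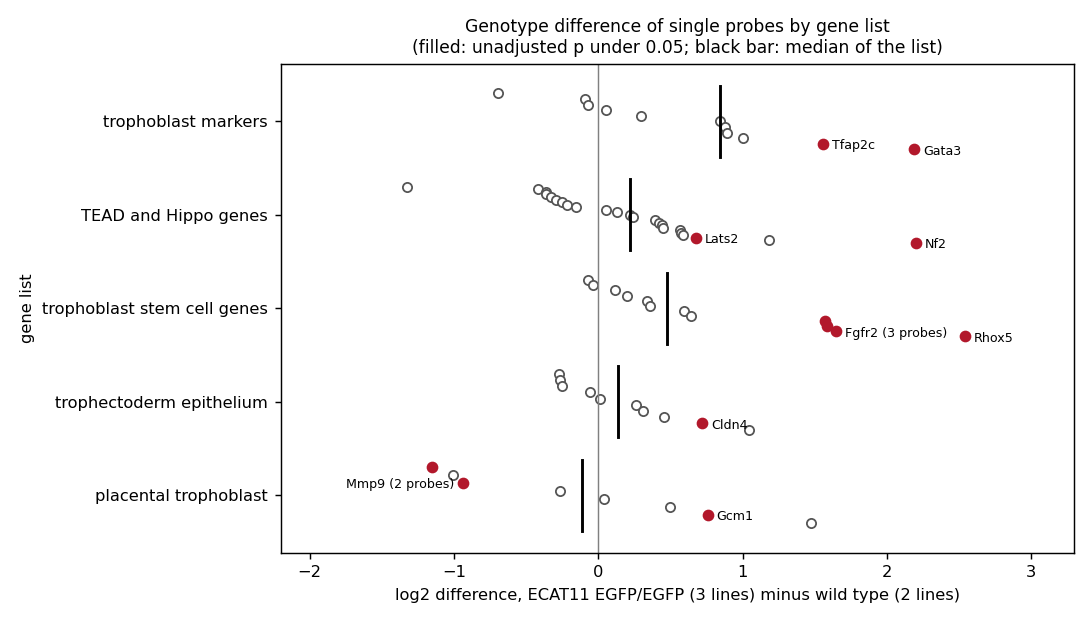
Log2 difference of the ECAT11EGFP/EGFP lines from the wild-type lines (x axis) for each kept probe of the markers and of the other 4 trophoblast lists (rows). Filled points have an unadjusted limma p under 0.05 and are named, and black bars are list medians over probes, from -0.11 for the placental list to 0.84 for the markers.

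Markers of other cells that share some of these genes were summed in the same way. Primitive endoderm, the other epithelium of the blastocyst, also makes keratins 8 and 18. Of its 11 listed genes, 9 were well above background in RF8, 10 in #620-2 and #620-6, and 7 in #757-1 and #757-2. The summed signal was 16.9 and 29.0 in the wild-type lines, #620-2 and RF8, and 24.1 to 28.6 in the ECAT11EGFP/EGFP lines. Sparc and Lamb1 gave most of this sum, and its lowest value was in #620-2, while RF8 was close to #757-2 at 28.6. The endoderm transcription factors Gata6, Sox7, Sox17 and Foxa2 gave a lower signal in RF8 than in #620-2. With the brightest probes, Gata6 lay at -3.07 and -1.35 and Sox17 at -4.99 and -2.64. Gata4, another such factor, went the other way by a little, at -5.11 in RF8 and -5.24 in #620-2. Gata4 lay at or under -5.11 in every line, and Ttr was not well above background on any array. Of the 14 kept probes, 1 passed at an unadjusted p under 0.05, for Dab2, at -0.51 ± 0.17 (limma adjusted p = 0.591). The part of these cells in the keratin levels was not tested.

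Fibroblast genes, which feeder cells express, had a summed signal of 9.08 and 15.6 in the wild-type lines and 2.39 to 8.46 in the ECAT11EGFP/EGFP lines, with 7 or 8 of 8 genes well above background in each line. Lum was not well above background in RF8, #757-1 and #757-2. Between the genotypes the sums were thus lower where Tfap2c and Gata3 were higher. Within the genotypes the order differed by gene. For Tfap2c, RF8 had a higher sum and a lower level than #620-2. Likewise #620-6 had a higher sum and a lower Tfap2c level than #757-1 and #757-2, but between these last lines #757-2 was higher in both. For Gata3, #620-6 had both the highest level and the highest sum of the ECAT11EGFP/EGFP lines, and RF8 exceeded #620-2 in both. Only #757-1 and #757-2 kept the opposite order for Gata3. The part of feeder cells in these levels was not tested. Between #620-2 and #620-6, which lay on the same slide, this sum was 9.08 and 8.46, while Gata3 was -2.42 and 0.90 and Tfap2c 2.24 and 3.52. Mesoderm genes, a tissue in which Hand1 and Gata2 are also expressed, summed to 0.60 to 0.76 in the wild-type lines and 0.57 to 0.87 in the ECAT11EGFP/EGFP lines. Of the 9 mesoderm genes, 4 to 7 were well above background in a line, and Mixl1 and Hand2 were so in none. Mesp1, with 1 of 2 probes, and Tbx6 were lower in the ECAT11EGFP/EGFP lines at an unadjusted limma p under 0.05, as was Fbn1 of the fibroblast list. Their part in the levels of the markers was not tested.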

How the data were processed

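Total RNA of each ESC line was labelled with Cy3 and hybridized to an Agilent mouse array. The authors extracted the scans with Feature Extraction 9.5.3.1 and deposited, per spot, a mean intensity, a local background and a background-corrected intensity, not normalized between arrays. They also deposited a table of log2 values, centred by probe. Its differences between arrays matched those of the scanner files (Pearson r 0.999938 over 20617 probes).

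Control spots were left out, and spots marked non-uniform or as population outliers, up to 0.355% of an array, were set missing. The background-corrected intensity was divided by its 75th percentile over all other spots of the array and put on the log2 scale, and spots of a probe were averaged. A probe counted as well above background where Feature Extraction had set that mark on more than 50% of its unmarked spots. No spot was saturated. Probes detected on at least 1 array were kept. The comparison of genotypes used limma (version 3.58.1, with R version 4.3.3) on all kept probes. Simulated data served to check the code. Over 20 simulations, the comparison of genotypes recovered 0% of 2-fold, 14.5% of 4-fold and 65.8% of 16-fold changes. It made 2.75 false calls per simulation. Probe positions are those in the files (mm7), gene names come from the RefSeq table where it lists the accession or symbol, and promoters from RefSeq (GRCm38.p6), another build used only for sequences.

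The markers and gene lists were chosen with earlier results of these data known, and 1 gene of the lists is not reported here. Every marker probe is named, and of the other trophoblast lists each gene with a probe at an unadjusted p under 0.05. The alternatives were normexp background correction (offset 50), the deposited log2 table, quantile normalization, no filter, a stricter filter (well above background on all arrays of a genotype), marked spots kept, slide as a block, gender label as a covariate, the methods' t-test, a variance trend, and leaving out each line. The authors' methods state 75th percentile scaling. Replicate numbers were given here in the order of deposition and pair no lines. Figures were drawn with matplotlib 3.10.9.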

Additional observations from a re-analysis of the deposited data

How the results depend on the processing

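None of the 11 marker probes and none of the other trophoblast probes was called under any of the 15 alternatives. Given the low recovery of 2-fold and 4-fold changes in simulated data, this does not show that these probes were unchanged. Over all probes, the 1 call became 0 with normexp, quantile normalization, no filter, slide as a block, the gender label as a covariate or the methods' t-test, and 3 with the stricter filter. It was 0 to 0 when each line was left out in turn. At the methods' threshold, a fold over 2 with an adjusted p under 0.05, their t-test thus passed 0 probes, and with an unadjusted p under 0.05 it passed 580 and limma 967. The marker probes at an unadjusted p under 0.05 numbered 2 in the main analysis and 2 to 6 with a line left out, with 5 without RF8 and 6 without #620-2, where a lone wild-type line was assumed to vary like the other group. Tfap2c passed that level in 15 of 15 alternatives, with log2 differences of 1.41 to 1.71, and Gata3 in 14, with 1.72 to 3.14. Krt8 reversed to 0.00076 for its first probe with the slide as a block, and to 1.06 and 0.98 for its probes without RF8. Krt18 reversed to -0.085 with the gender label and to -0.91 without #620-2, and Elf5 to -0.11 without #620-2, and the cause was not tested. Elf5 was not kept by the stricter filter, which leaves 14 alternatives for it. Without a filter, the median of all probes moved to 0.12. Signal over background on slide 2 limits Cdx2, Elf5, Gcm1, Mmp9 and the dimmest Nf2 probe. No paired analysis was run. The labels give no replicate numbers, and only the number 620 occurs in line names of both genotypes.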

Other observations

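Genes of the trophoblast lists outside the comparisons above also varied by line. They were chosen after their values were seen. Plac1, an X-linked gene of the placenta, gave -0.99 in #620-6, against -4.27 in RF8, -4.02 in #620-2, -3.45 in #757-1 and -3.60 in #757-2, so 1 line stood apart. Aqp3, a water and glycerol channel of the trophectoderm, gave 4.05 in #620-6 and 1.27 in RF8, with 3.14 in #620-2, 2.79 in #757-1 and 2.90 in #757-2. Id2, an inhibitor of basic helix-loop-helix factors, gave 1.18 in #620-2 with its brighter probe, against 3.39 in RF8, 2.63 in #620-6, 3.34 in #757-1 and 2.81 in #757-2. Synb, an envelope gene of the syncytiotrophoblast, was well above background in RF8 alone, at -3.80.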
